A study of Mus musculus with 50 samples.

Results

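Interferon-stimulated genes, the genes that cells switch on when interferons bind their receptors, were followed through 5 populations of mouse colon epithelial cells. The list held 43 genes, among them transcription factors, sensors of foreign nucleic acid, antiviral effectors, enzymes of the ISG15 system and interferon-inducible GTPases. A gene was represented by the probe set with the highest mean level among those whose only symbol in the platform annotation was that gene's. This gave a probe set to 41 of the 43 genes, out of 18193 genes on the array. The only probe set of Isg15 carried more than 1 symbol and no probe set was matched to Ifi44, so neither is measured here. A gene was tested if at least 10 of the 50 arrays exceeded the median of all values (6.44 on the log2 scale), which 12883 genes did, and 40 of the 41 were among them. All 40 lay above that median on all 50 arrays, so none entered through 1 population alone. The member left out was Mx1, a dynamin-like antiviral GTPase, which lay above the median on 1 array, a Ras array with a level of 6.59.

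The study asked how 2 oncogenes, alone and together, change the mRNA that colon cells translate. Young adult mouse colon (YAMC) cells came from the H-2Kb/tsA58 mouse, whose temperature-sensitive large T antigen is driven by a promoter that interferon gamma induces. Retroviruses gave 4 further polyclonal populations, named bleo/Neo (both empty vectors), mp53 (p53175H with the Neo vector), Ras (RasV12 with the Bleo vector) and mp53/Ras (both oncogenes). Polysomal RNA, the fraction bound to several ribosomes, was put on Affymetrix mouse arrays, 10 per population and 50 in all. All 5 populations, YAMC included, carry the large T transgene, were maintained at 33 °C with 5 U/ml interferon gamma, and were moved to 39 °C with the interferon gamma withdrawn, first for 48 h and then in 0% serum for 24 h. No group was treated with interferon at harvest, and interferon gamma had been in the medium of all of them before. Each population exists once, so a difference between populations cannot be told apart from a difference between derivations, and nothing says that the replicates were separate cultures, so a p-value covers only how much these samples varied. Levels are log2 intensities, differences are differences of log2 intensities with the standard error of the fit (±), and a gene was called higher or lower at a Benjamini-Hochberg adjusted p under 0.05 in limma, with n = 10 arrays in each group. Polysomal levels join transcript abundance with ribosome loading. In cultures, fewer responding cells and less RNA per cell cannot be told apart either.

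Type I interferons act through a receptor whose kinases assemble a complex of STAT proteins with Irf9, which binds the interferon-stimulated response element in the promoters of target genes. Interferon gamma acts through its own receptor and a STAT dimer that binds the gamma-activated site, and Irf1 carries part of that response onward. Epithelial cells of the colon hold a low level of this programme without infection, and its products degrade viral RNA, block translation, tag proteins with ISG15 or attack the membranes around intracellular pathogens.

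Promoters of the members, taken from RefSeq (build GRCm38.p6) as windows from 250 bases before to 50 after each start, were searched for both elements. A window was available for 34 of the 43 genes. The response element core, written GAAANNGAAA and searched on both strands with overlaps counted, was present in 16 of the 34 (47.1%), beside 3.99% of the 27025 genes of the same table. The gamma-activated site, TTCNNNGAA, which reads the same on both strands, was present in 9 of the 34 (26.5%), beside 9.55% of all genes. Stretches around the core are shown for the 4 members with the largest differences that hold it, Gbp2, Gbp3, Igtp and Ifit3, and for Ifit1 and Rsad2, commonly measured reporters of the response. Each is read 5′ to 3′ on the strand of the gene and ends before the first transcribed base, and capitals mark the core, whose letters are complemented and reversed where it lies on the other strand.
Gbp2: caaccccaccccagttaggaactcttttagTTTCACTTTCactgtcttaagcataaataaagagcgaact
Gbp3: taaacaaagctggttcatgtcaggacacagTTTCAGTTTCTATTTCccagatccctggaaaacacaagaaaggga
Igtp: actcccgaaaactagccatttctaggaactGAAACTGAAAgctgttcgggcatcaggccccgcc
Ifit3: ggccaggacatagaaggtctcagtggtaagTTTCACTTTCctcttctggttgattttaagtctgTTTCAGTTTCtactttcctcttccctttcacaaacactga
Ifit1: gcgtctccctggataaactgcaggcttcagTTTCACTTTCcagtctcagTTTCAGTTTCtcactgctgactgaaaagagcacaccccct
Rsad2: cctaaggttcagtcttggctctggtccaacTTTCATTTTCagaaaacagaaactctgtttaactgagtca
The stretches lie at chr3:142620574-142620643, plus strand, for Gbp2, at chr3:142559969-142560043, plus strand, for Gbp3, at chr11:58199492-58199555, plus strand, for Igtp, at chr19:34583343-34583446, plus strand, for Ifit3, at chr19:34640755-34640843, plus strand, for Ifit1, and at chr12:26456533-26456602, minus strand, for Rsad2. Ifit1 and Ifit3 each carried 2 separate cores, Gbp3 carried 2 overlapping cores, and Gbp2, Igtp and Rsad2 carried 1. The window of Igtp also held a gamma-activated site, at positions -45 to -37 from the start. Ifit2 and Isg20 had a gamma-activated site and no core in the window, at -241 to -233 and at -73 to -65, and Irf1 had one at -90 to -82. The window of Oasl1 held neither sequence. A match describes the letters of the window only, and binding was not measured.

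Before the results, 4 arrays have to be named. Over the 12843 tested genes outside the list, 46 of the 50 arrays lay nearest the mean of their own group, by the root mean square difference over genes. The array labelled YAMC 2 lay nearer the mp53 mean (0.480) than its own (0.512), the array labelled mp53 8 nearer YAMC (0.361 against 0.495), the array labelled mp53 10 nearer Ras (0.266 against 0.417) and the array labelled Ras 10 nearer mp53 (0.275 against 0.488). Nothing in the labels settles whether these 4 arrays hold the cells they name, so values over all 50 arrays hold for the labels as given. Counts of members are given over all 50 arrays and over the 46 others. The 46-array value of a single gene is added where it changes the call or differs by over 1.5 times. As markers of the cells, Krt8 and Krt18, keratins of simple epithelium, were bright (means of 11.75 and 10.54 in YAMC), whereas the epithelial cadherin gene Cdh1 lay near the bottom of the table (3.97 in YAMC). Of 12 leukocyte markers on the array 5, among them Ptprc, Itgam, Adgre1 and Tyrobp, lay below the filter. The 7 that passed were Cd3e, Csf1r, Cd14, Fcer1g, Lyz2, Siglech and Flt3. Cd14, the brightest of them, had its highest mean with Ras alone (9.30) and its lowest with mutant p53 alone (7.96). With both oncogenes its mean was 8.97, beside 8.77 for YAMC and 8.31 for the vector population. The summed intensity of all 12 ran from 1148 to 2147 over the 50 arrays, with every group's range overlapping every other's. Summed fibroblast markers ran from 18803 to 31415 in YAMC, 10226 to 21413 in bleo/Neo, 9943 to 33671 in mp53, 6920 to 19119 in Ras and 10288 to 15759 in mp53/Ras cells, and summed epithelial markers from 4844 to 9982, 9339 to 14093, 7477 to 14801, 11041 to 15843 and 13395 to 16668 in the same order. The 5 endothelial markers, of which 2 passed the filter, summed to between 258 and 504. Their part in the results below was not tested.

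The list as a whole stood highest in YAMC and Ras cells and lowest in mp53 cells. On each array the median deviation of the 40 members from their own means over the 50 arrays was taken. Its lowest, median and highest values were -0.88, 0.27 and 0.50 in YAMC cells, -0.39, -0.08 and 0.24 in bleo/Neo cells and -0.36, -0.28 and 0.45 in mp53 cells. They were -0.16, 0.21 and 0.39 in Ras cells and -0.42, -0.09 and 0.11 in mp53/Ras cells. The groups overlapped, and the arrays at their edges were those named above: YAMC 2 was the lowest of all 50, and mp53 8 and mp53 10 were the highest of their group. Over the 46 arrays the 8 mp53 arrays lay between -0.36 and -0.20, below all 9 YAMC arrays (-0.03 to 0.50) and all 9 Ras arrays (-0.04 to 0.39).

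**Figure D1:**
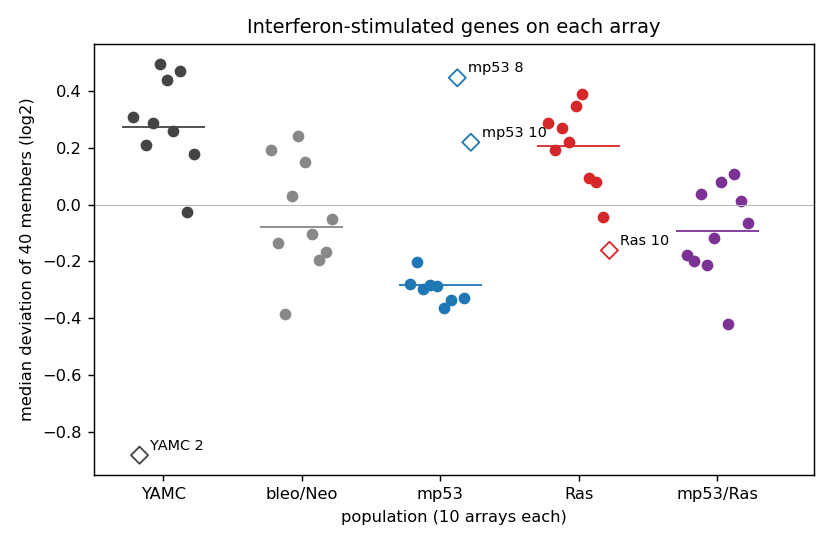
Median deviation of the 40 tested members from their own means (log2, vertical axis) on each of 50 arrays, by population; filled points are the 46 arrays nearest their own group, open diamonds the 4 others, named except where a group has none, and horizontal bars are medians of 10 arrays. Most mp53 arrays sit between -0.36 and -0.20, with mp53 8 at 0.45 and mp53 10 at 0.22, while YAMC 2 at -0.88 lies far below the other YAMC arrays.

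**Figure D2:**
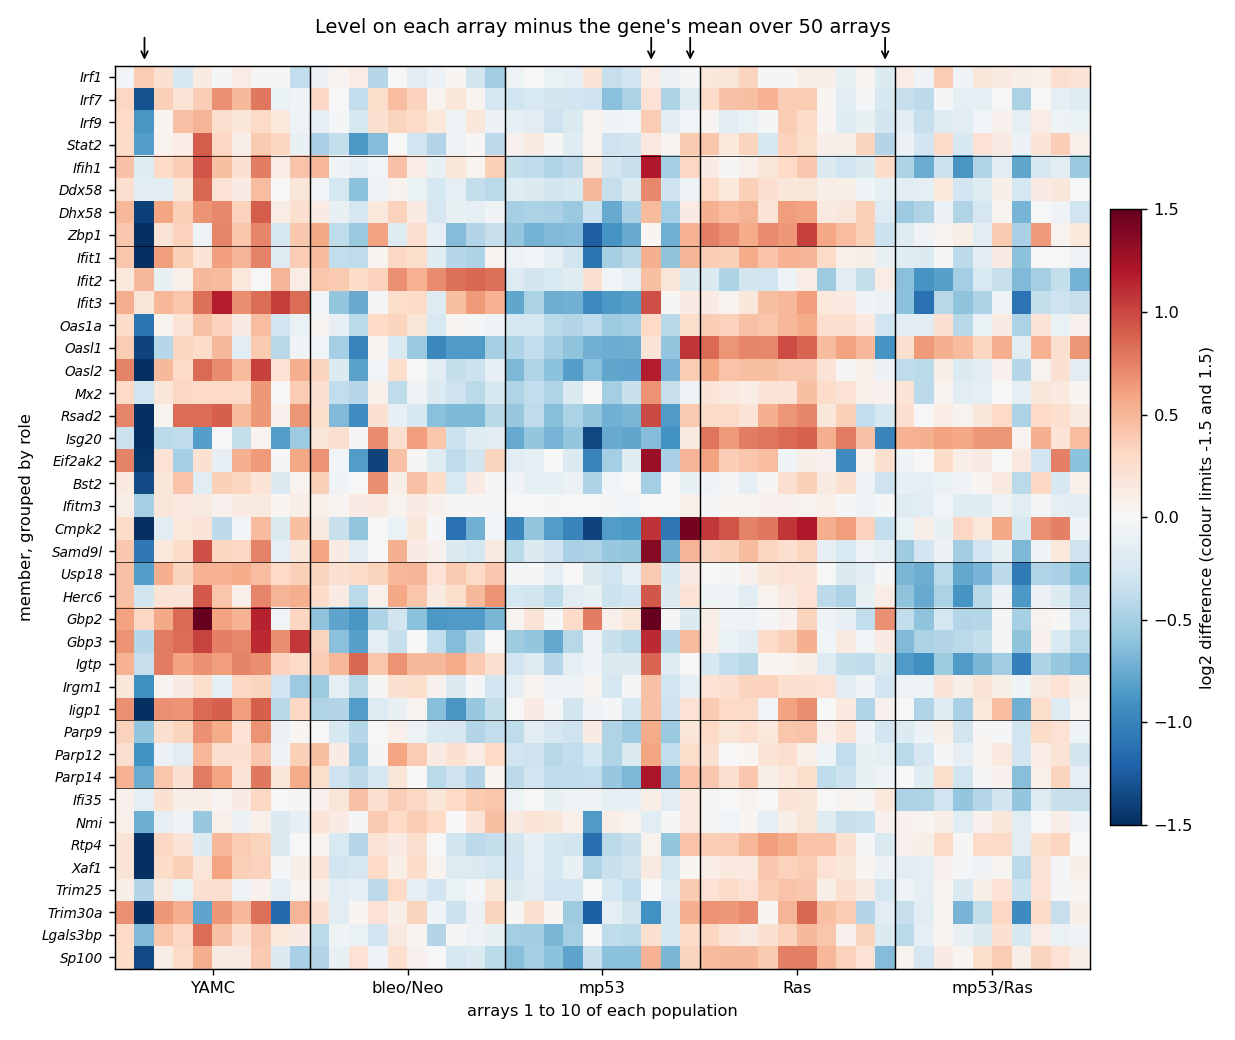
Level of each of the 40 tested members (rows, grouped by role) on each of 50 arrays (columns, arrays 1 to 10 of each population from left to right) minus the gene's mean over the 50 arrays, as a log2 difference coloured between -1.5 and 1.5; arrows mark YAMC 2, mp53 8, mp53 10 and Ras 10. Most rows are red in YAMC and Ras and blue in mp53, Igtp and Usp18 are blue in mp53/Ras, and the marked YAMC 2 column is blue in nearly every row.

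In mp53 cells, compared with parental YAMC cells, no member rose, and members of every role fell. The count was 16 of 40 lower and 0 higher, where 11.8% of all tested genes were called lower and 11.1% higher, and the members' median difference was -0.34 beside 0.00 over all genes. Over the 46 arrays 37 of 40 fell and 0 rose, with a median of -0.61, beside backgrounds of 16.9% lower and 16.8% higher and an all-gene median of 0.00. In 17 of the 40 the 8 mp53 arrays then all lay below the 9 YAMC arrays, and in 0 of them with all 50 arrays. The share of all tested genes separated in this way was not counted, so the 17 are not read as a result about the members. With the spread estimated from YAMC and mp53 arrays only, the 50-array count was 7 lower. Without YAMC 2 alone it was 28 lower and without mp53 8 alone 23 lower.

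Ifit3, a partner of the RNA-binding protein Ifit1, fell the most. Its lowest, median and highest levels were 11.62, 12.20 and 12.62 in YAMC cells and 10.49, 10.71 and 12.40 in mp53 cells, a difference of -1.13 ± 0.18 (adjusted p = 4.67e-06) and, over 46 arrays, of -1.43 ± 0.15 (adjusted p = 3.41e-10). The only mp53 array to reach the YAMC range was mp53 8, and over 46 arrays the 8 mp53 arrays went up to 11.46 and the 9 YAMC arrays began at 11.85. Gbp3, a guanylate-binding protein of the family that attacks pathogen vacuoles, had levels of 10.79, 11.99 and 12.34 in YAMC and 10.45, 10.81 and 12.34 in mp53 cells and fell by 0.92 ± 0.17 (adjusted p = 4.3e-05). Here too the 2 ends met through the arrays named above, YAMC 2 holding the low end and mp53 8 the high end, and over 46 arrays Gbp3 fell by 1.30 ± 0.12 with no overlap. Igtp, an immunity-related GTPase strongly induced by interferon gamma, lay at 11.62, 12.58 and 12.74 in YAMC and 11.54, 11.77 and 12.83 in mp53 cells and fell by 0.58 ± 0.11 (adjusted p = 0.000153; -0.80 ± 0.08 over 46 arrays). In Igtp, YAMC 2 lay among the mp53 arrays and mp53 8 above every YAMC array.

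Of the 4 transcription factors 1 fell over all 50 arrays and 3 over 46. Irf7, which drives interferon alpha genes, fell by 0.47 ± 0.15 (over 46 arrays by 0.71 ± 0.11). Irf9 and Stat2, which belong to the complex on the response element, stood at -0.19 ± 0.11 and -0.14 ± 0.13 without passing the test, and fell over 46 arrays by 0.36 ± 0.08 and 0.32 ± 0.11. Irf1 stood at -0.10 ± 0.08 and -0.09 ± 0.08 and passed in neither. Of the 4 nucleic acid sensors 3 fell: Zbp1, a sensor of Z-form nucleic acid (-0.66 ± 0.22; -1.09 ± 0.15 over 46 arrays), Dhx58, the regulator of the RIG-I family known as LGP2 (-0.65 ± 0.16; -1.01 ± 0.10), and Ifih1, the long double-stranded RNA sensor MDA5 (-0.49 ± 0.14; -0.77 ± 0.11). Ddx58, which encodes RIG-I, stood at -0.26 ± 0.11 and was called over 46 arrays (-0.40 ± 0.11).

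Of 14 antiviral effectors tested 5 fell, Ifit2, Ifit3, Mx2, Oasl2 and Rsad2, and over 46 arrays all 14 did. The call of Ifit2 (-0.28 ± 0.10, adjusted p = 0.0362) was lost without YAMC 2 alone (adjusted p = 0.0632) and without mp53 10 alone (adjusted p = 0.0603) and held over 46 arrays (adjusted p = 0.0219). Rsad2, the antiviral enzyme viperin, lay at 8.42, 10.62 and 10.86 in YAMC and 9.11, 9.39 and 10.95 in mp53 cells and fell by 0.72 ± 0.21 (by 1.19 ± 0.14 over 46 arrays). Cmpk2, a nucleotide kinase, went from -0.37 ± 0.27, not called, to -1.02 ± 0.15 over 46 arrays. In Cmpk2 YAMC 2 was the lowest YAMC array, at 6.73, and mp53 10 the highest mp53 array, at 10.26. The smallest called difference among effectors was that of Ifitm3, which blocks virus entry (-0.12 ± 0.03 over 46 arrays). Usp18, which removes ISG15 from proteins and restrains the type I receptor, fell by 0.38 ± 0.10 (-0.59 ± 0.07 over 46 arrays), and Herc6, the mouse ISG15 ligase, fell by 0.46 ± 0.14 (-0.70 ± 0.12). Parp9 and Parp14, ADP-ribosyltransferase family members, fell by 0.42 ± 0.12 and 0.56 ± 0.17 (-0.65 ± 0.10 and -0.94 ± 0.12 over 46 arrays). Among the remaining genes Lgals3bp, a secreted glycoprotein, fell by 0.53 ± 0.12. The 3 members that did not pass over 46 arrays either were Irf1, the GTPase gene Irgm1 (-0.12 ± 0.10) and Nmi, a binding partner of Ifi35 (0.08 ± 0.10).

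Against the vector population bleo/Neo, 11 members fell in mp53 cells and 2 rose, beside 18.9% and 16.5% of all tested genes, with a member median of -0.21 and an all-gene median of -0.02. Over 46 arrays 25 fell and 2 rose, beside 21.6% and 18.5%, and the member median was -0.31. The mp53 arrays are the same as in the comparison with YAMC, so the values of both comparisons share them. Of the 16 members lower against YAMC over 50 arrays, Herc6, Ifit2, Ifit3, Igtp, Irf7 and Usp18 were also called lower against bleo/Neo. The others, Dhx58, Gbp3, Ifih1, Lgals3bp, Mx2, Oasl2, Parp9, Parp14, Rsad2 and Zbp1, were not called against bleo/Neo over 50 arrays. Isg20, an exonuclease that degrades single-stranded RNA, lay at 10.28, 10.80 and 11.31 in bleo/Neo and 9.23, 9.87 and 10.73 in mp53 cells and fell by 0.87 ± 0.18 (adjusted p = 7.53e-05). Only mp53 10 reached into the bleo/Neo range. Ifit2, another tetratricopeptide effector, fell by 0.63 ± 0.10, Igtp fell by 0.58 ± 0.11 and Usp18 fell by 0.41 ± 0.10. The 2 members that rose were Gbp2, a guanylate-binding protein, by 0.97 ± 0.15 (adjusted p = 1.31e-06), and Stat2 by 0.36 ± 0.13. All 10 mp53 arrays lay above all 10 bleo/Neo arrays in Gbp2, and Gbp2 was also the member lowest in bleo/Neo relative to YAMC cells.

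Members were also lower where mutant p53 was present beside Ras. Between mp53/Ras and Ras cells 13 of 40 members fell and 0 rose, beside backgrounds of 12.5% lower and 9.12% higher, and over 46 arrays 24 fell and 0 rose, beside 14% and 11.1%. The member median was -0.28 and -0.31 over 46 arrays, with all-gene medians of 0.01 and 0.01. Fitting only the Ras and mp53/Ras arrays called 23 lower. Ifit3 again led: its levels were 11.35, 11.59 and 12.06 in Ras and 10.32, 11.00 and 11.36 in mp53/Ras cells, a difference of -0.75 ± 0.18 (adjusted p = 0.00133). The highest mp53/Ras array lay just above Ras 10, the lowest Ras array, and without Ras 10 all mp53/Ras arrays lay below all Ras arrays. Usp18 lay at 12.30, 12.52 and 12.73 in Ras and 11.45, 11.87 and 12.13 in mp53/Ras cells and fell by 0.65 ± 0.10 (adjusted p = 3.73e-06), with all 10 mp53/Ras arrays below all 10 Ras arrays. The same separation held for Igtp, which fell by 0.51 ± 0.11, and for Ifi35, a leucine-zipper protein that pairs with Nmi, which fell by 0.46 ± 0.05. Dhx58 and Ifih1 fell by 0.62 ± 0.16 and 0.54 ± 0.14, and Gbp3 fell by 0.47 ± 0.17.

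The comparisons of mp53 with YAMC and of mp53/Ras with Ras have no array in common. Of the 16 members lower in the first and the 13 lower in the second, 10 were in both: Dhx58, Gbp3, Herc6, Ifih1, Ifit2, Ifit3, Igtp, Irf7, Lgals3bp and Usp18. The overlap of these calls over all tested genes was not counted, so the 10 are given as a list only. Over 46 arrays the first list holds 37 of the 40 members, so the overlap there is not read. Whether the 2 differences of a gene were unequal was tested as mp53/Ras minus Ras minus the difference of mp53 from YAMC. Over 50 arrays this was called in 1 member, Ifi35 (-0.33 ± 0.07, adjusted p = 0.00125), beside 12.4% of all tested genes called either way. With YAMC as the baseline, Ifi35 was thus lower by more in the presence of Ras. Over 46 arrays it was called in 10 members, beside 18.3%. In 9 of the 10 the difference was less negative in the presence of Ras, and these were Gbp3 (0.83 ± 0.16), Ifit3, Lgals3bp, Mx2, Oasl2 (0.81 ± 0.16), Parp9, Parp12, Parp14 and Rsad2. Rsad2 fell by 1.19 ± 0.14 over 46 arrays between YAMC and mp53 cells and stood at -0.21 ± 0.13, not called, between Ras and mp53/Ras cells, and these values differed by 0.98 ± 0.20 (adjusted p = 0.000204). Apart from Ifi35, these members were called only without the 4 arrays: Rsad2 had 0.56 ± 0.30 (adjusted p = 0.23) over all 50. With bleo/Neo in place of YAMC as the cells without an oncogene, Ifi35 had -0.12 ± 0.07 (adjusted p = 0.244) over 50 arrays. Rsad2 then had -0.19 ± 0.30 (adjusted p = 0.699). Over 46 arrays only Parp12 of the 10 was called with bleo/Neo. Apart from Parp12, these results therefore hold only with YAMC as the baseline.

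**Figure D3:**
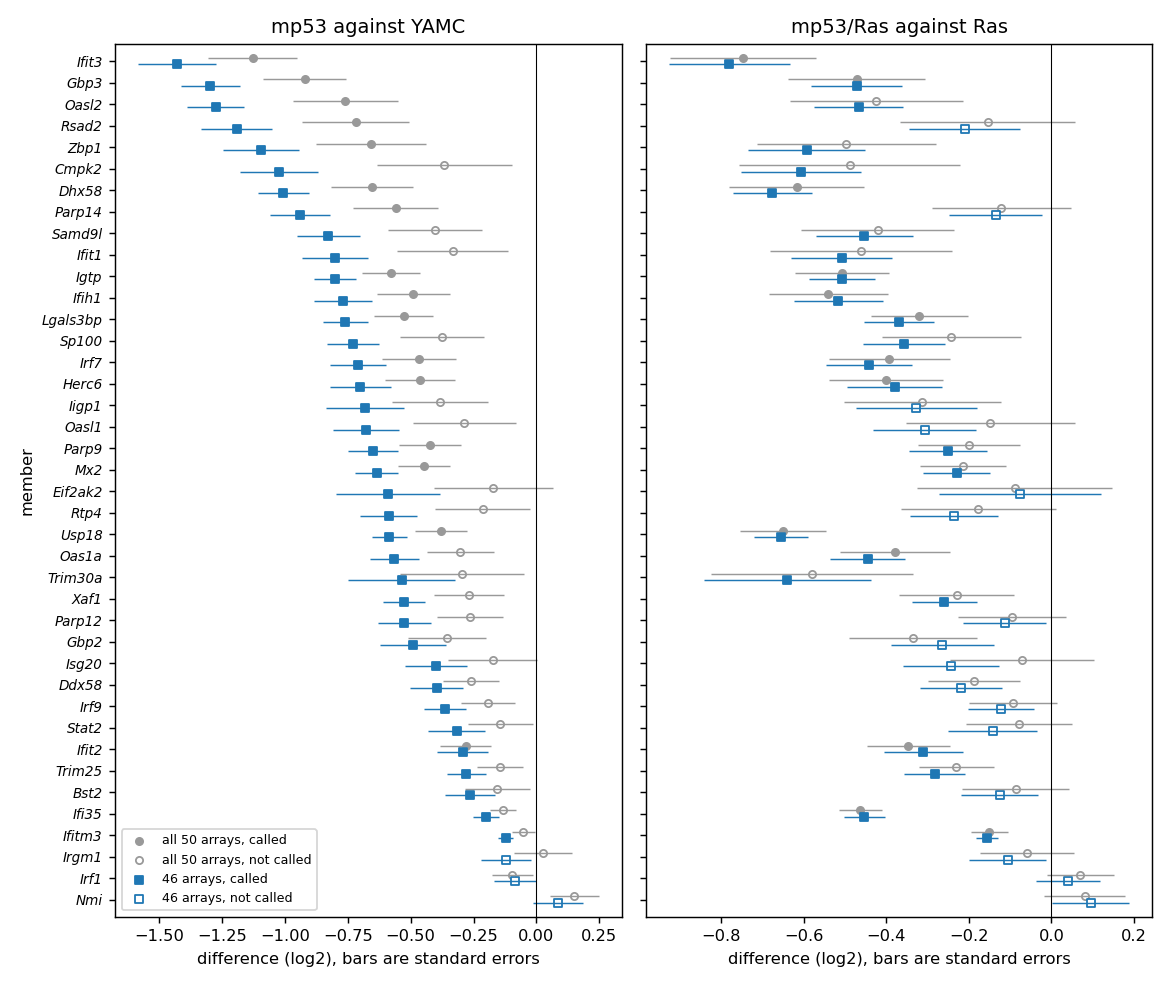
Difference of mp53 minus YAMC (left) and mp53/Ras minus Ras (right) on the log2 scale for each of the 40 tested members, with standard errors as bars; circles use all 50 arrays, squares the 46 arrays nearest their own group, and filled symbols are called at an adjusted p under 0.05. With 50 arrays 38 of 40 circles lie left of 0 in each panel, Ifit3 is the largest difference in both (-1.13 and -0.75 with 50 arrays), and the mp53 differences grow over 46 arrays.

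More members were higher than lower in Ras cells than in the vector population. In Ras against bleo/Neo cells 15 of 40 rose and 6 fell, beside 19.7% and 21.4% of all tested genes, and the member median was 0.30 where that of all genes was -0.01. Over 46 arrays 23 rose and 6 fell, beside 22.3% and 24.8%, with a member median of 0.34. Oasl1, a relative of the oligoadenylate synthetases known to hold back translation of Irf7 mRNA in mice, rose the most. Its levels were 7.96, 8.43 and 8.99 in bleo/Neo and 8.08, 9.65 and 9.94 in Ras cells, a difference of 1.09 ± 0.20 (adjusted p = 1.76e-05). The overlap came from Ras 10, at 8.08, while the other 9 Ras arrays began at 9.43, above every bleo/Neo array. Cmpk2 rose by 0.96 ± 0.27, Zbp1 rose by 0.67 ± 0.22, Rsad2 rose by 0.65 ± 0.21, the GTPase gene Iigp1 rose by 0.64 ± 0.19 and Sp100, a component of nuclear bodies, rose by 0.47 ± 0.17. Gbp2 rose by 0.74 ± 0.15 and Stat2 rose by 0.49 ± 0.13. Of the 15, only Oasl1 and Cmpk2 were also called higher in Ras than in YAMC cells with all arrays. Gbp2 and Gbp3 were called lower there (-0.59 ± 0.15 and -0.60 ± 0.17). Ddx58, Iigp1, Irf1, Lgals3bp, Mx2, Parp9, Rsad2, Sp100, Stat2, Trim25 and Zbp1 were not called against YAMC. Over 46 arrays Sp100 (0.36 ± 0.10) and Trim25 (0.21 ± 0.08) were called higher and Iigp1 lower (-0.36 ± 0.15).

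The 6 members that fell with Ras were Ifit2, Igtp, Herc6, Usp18, Nmi and Ifi35. Ifit2 lay at 9.79, 10.13 and 10.39 in bleo/Neo and 8.99, 9.28 and 9.63 in Ras cells and fell by 0.80 ± 0.10 (adjusted p = 3.97e-09). Igtp lay at 12.19, 12.45 and 12.82 in bleo/Neo and 11.55, 11.74 and 12.06 in Ras cells and fell by 0.69 ± 0.11 (adjusted p = 1.67e-06). In both genes every Ras array, Ras 10 included, lay below every bleo/Neo array. The Ifit family did not move as one, with Ifit2 lower, Ifit3 at 0.15 ± 0.18 and Ifit1, the founding member of that family, at 0.38 ± 0.22, the last called only over 46 arrays (0.43 ± 0.12). Among the GTPases Igtp fell while Gbp2, Gbp3 and Iigp1 rose.

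With mutant p53 present, Ras went with 6 members higher and 8 lower in mp53/Ras than in mp53 cells, beside 23.3% and 23.8% of all tested genes, and over 46 arrays 18 higher and 6 lower, beside 23.4% and 24.3%. The member median was 0.10, and 0.20 over 46 arrays, with all-gene medians of 0.01 in both. The shares of members called over 50 arrays were no higher than those backgrounds, and over 46 arrays the share called higher was 18 of 40. Isg20 rose the most, from 9.23, 9.87 and 10.73 in mp53 to 10.64, 11.14 and 11.26 in mp53/Ras cells, by 1.17 ± 0.18 (adjusted p = 2.56e-07). The highest mp53 array, mp53 10, just passed the lowest mp53/Ras array, and without it the 2 groups were apart. Oasl1 rose by 0.75 ± 0.20, Cmpk2 rose by 0.71 ± 0.27 (by 1.15 ± 0.15 over 46 arrays), Zbp1 rose by 0.61 ± 0.22 and Sp100 rose by 0.53 ± 0.17. Igtp fell by 0.62 ± 0.11, Usp18 fell by 0.57 ± 0.10 and Ifit2 fell by 0.52 ± 0.10, and in Igtp, Usp18 and Ifi35 all mp53/Ras arrays lay below all mp53 arrays.

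These comparisons, Ras with bleo/Neo and mp53/Ras with mp53, share no array. Of 15 members higher in the first and 6 higher in the second, 5 were in both (Cmpk2, Irf1, Oasl1, Sp100 and Zbp1), and over 46 arrays 16 were in both, of 23 and 18. Of 6 lower in the first and 8 lower in the second, 5 were in both (Herc6, Ifi35, Ifit2, Igtp and Usp18), and over 46 arrays 4 were in both, of 6 and 6, Herc6 no longer passing between mp53 and mp53/Ras cells (-0.23 ± 0.12). The overlaps over all tested genes were not counted here either, so the shared members are given as lists only.

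**Figure D4:**
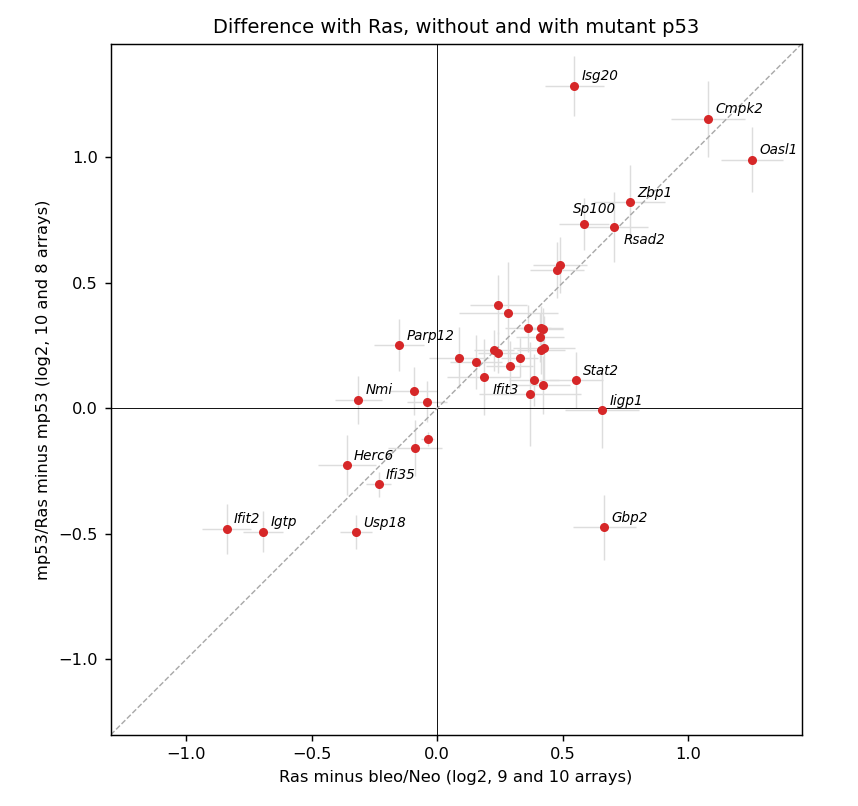
Difference of Ras minus bleo/Neo (horizontal axis) against mp53/Ras minus mp53 (vertical axis) on the log2 scale for the 40 tested members over 46 arrays, with standard errors as bars, 0 as solid lines and equality as a dashed line. Oasl1, Cmpk2, Zbp1 and Rsad2 lie at the upper right, Ifit2, Igtp and Usp18 at the lower left, Isg20 above the dashed line, and Gbp2 at the lower right, where the 2 differences have opposite signs.

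Against YAMC cells, Ras cells had 3 members higher and 7 lower, beside 21.5% and 21.2% of all tested genes, so the share lower, 7 of 40, was near the background. Over 46 arrays 5 were higher and 13 lower, beside 23.8% and 23%, and the member median was -0.02 and -0.08 over 46 arrays. Isg20 rose by 1.07 ± 0.18 (adjusted p = 2.09e-06), Cmpk2 rose by 0.84 ± 0.27 and Oasl1 rose by 0.61 ± 0.20. The 7 lower members were Igtp (-0.69 ± 0.11), Gbp3 (-0.60 ± 0.17), Gbp2 (-0.59 ± 0.15), Ifit3 (-0.50 ± 0.18), Ifit2 (-0.45 ± 0.10), Herc6 (-0.45 ± 0.14) and Usp18 (-0.30 ± 0.10). The YAMC arrays serve this comparison and the others with YAMC.

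With both oncogenes, 18 members were lower and 1 higher in mp53/Ras than in YAMC cells, beside 28.7% and 29.1% of all tested genes, with a member median of -0.26 and an all-gene median of 0.02. Over 46 arrays 27 were lower and 2 higher, beside 29% and 30.6%, with a member median of -0.35. Ifit3 fell by 1.25 ± 0.18, Igtp fell by 1.20 ± 0.11, Gbp3 fell by 1.08 ± 0.17, Usp18 fell by 0.95 ± 0.10 and Ifih1 fell by 0.86 ± 0.14. Isg20 was the 1 member higher, by 1.00 ± 0.18 (adjusted p = 3.53e-06). In Ifit2, Ifit3, Ifi35 and Igtp every mp53/Ras array lay below every YAMC array, YAMC 2 included.

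Against bleo/Neo the same mp53/Ras arrays gave 5 members higher and 8 lower, beside 26.7% and 27.9% of all tested genes, and over 46 arrays 11 and 14, beside 28.3% and 29.6%. These shares lay near or below the background with all 50 arrays, and the member median was 0.00. The fit of these 2 groups alone called 10 higher and 13 lower. Single members nevertheless differed widely: Igtp fell by 1.20 ± 0.11 (adjusted p = 5.65e-13), Ifit2 fell by 1.15 ± 0.10 (adjusted p = 4.4e-14) and Usp18 fell by 0.98 ± 0.10, while Oasl1 rose by 0.95 ± 0.20 and Rsad2 rose by 0.49 ± 0.21. In Ifit2, Ifi35, Ifih1, Usp18, Ifitm3 and Igtp all 10 mp53/Ras arrays lay below all 10 bleo/Neo arrays, a separation not counted over all tested genes.

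The vector population differed from its parental cells without any oncogene. In bleo/Neo against YAMC cells 11 members fell and 4 rose, beside 17.4% and 20% of all tested genes, and over 46 arrays 19 fell and 4 rose, beside 18.5% and 22.2%. The member median was -0.12, and -0.28 over 46 arrays, with all-gene medians of 0.01 and 0.02. Gbp2 lay at 10.18, 10.80 and 11.74 in YAMC and 9.35, 9.48 and 9.95 in bleo/Neo cells and fell by 1.33 ± 0.15 (adjusted p = 8.18e-10), the largest difference of any member in the 9 pairwise comparisons over 50 arrays. Every bleo/Neo array was below every array of YAMC cells in Gbp2. Gbp3 fell by 1.02 ± 0.17, Iigp1 fell by 0.81 ± 0.19, Rsad2 fell by 0.75 ± 0.21 and Stat2 fell by 0.51 ± 0.13. Isg20 rose by 0.70 ± 0.18, Nmi rose by 0.40 ± 0.10, Ifit2 rose by 0.35 ± 0.10 and Ifi35 rose by 0.21 ± 0.05. Igtp, at 0.00 ± 0.11, and Usp18, at 0.03 ± 0.10, were not called (adjusted p = 0.988 and 0.858), nor over 46 arrays (-0.09 ± 0.08 and -0.10 ± 0.07).

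Whether the difference with Ras depended on mutant p53 was tested with the non-additive term, the difference of mp53/Ras from mp53 minus that of Ras from bleo/Neo. It was called higher in 1 member and lower in 2, beside 11.8% and 12% of all tested genes, and over 46 arrays higher in 3 and lower in 3, beside 13.1% and 12.9%. The share of members called lay below that background, and a term that misses the threshold does not show that the differences were alike. Gbp2 had a term of -1.31 ± 0.22 (adjusted p = 7.43e-06): it rose by 0.74 ± 0.15 with Ras on the vector background and fell by 0.57 ± 0.15 on the mp53 background. With YAMC in place of bleo/Neo as the cells without an oncogene the term of Gbp2 was 0.02 (adjusted p = 0.967), so the sign of this result rests on the bleo/Neo level. Isg20 had a term of 0.80 ± 0.25 (adjusted p = 0.0138), and with YAMC as the baseline 0.10 (adjusted p = 0.842). Iigp1 had a term of -0.74 ± 0.27 (adjusted p = 0.0397), and with YAMC as the baseline 0.07 ± 0.27 (adjusted p = 0.903). Over 46 arrays Ifit2 (0.36 ± 0.14), Parp12 (0.40 ± 0.14) and Stat2 (-0.44 ± 0.15) passed too. With YAMC as the baseline over 46 arrays, Parp12 was called (0.41 ± 0.15, adjusted p = 0.0405). Ifit2 (-0.02 ± 0.14, adjusted p = 0.951) and Stat2 (0.18 ± 0.16, adjusted p = 0.481) were not.

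**Figure D5:**
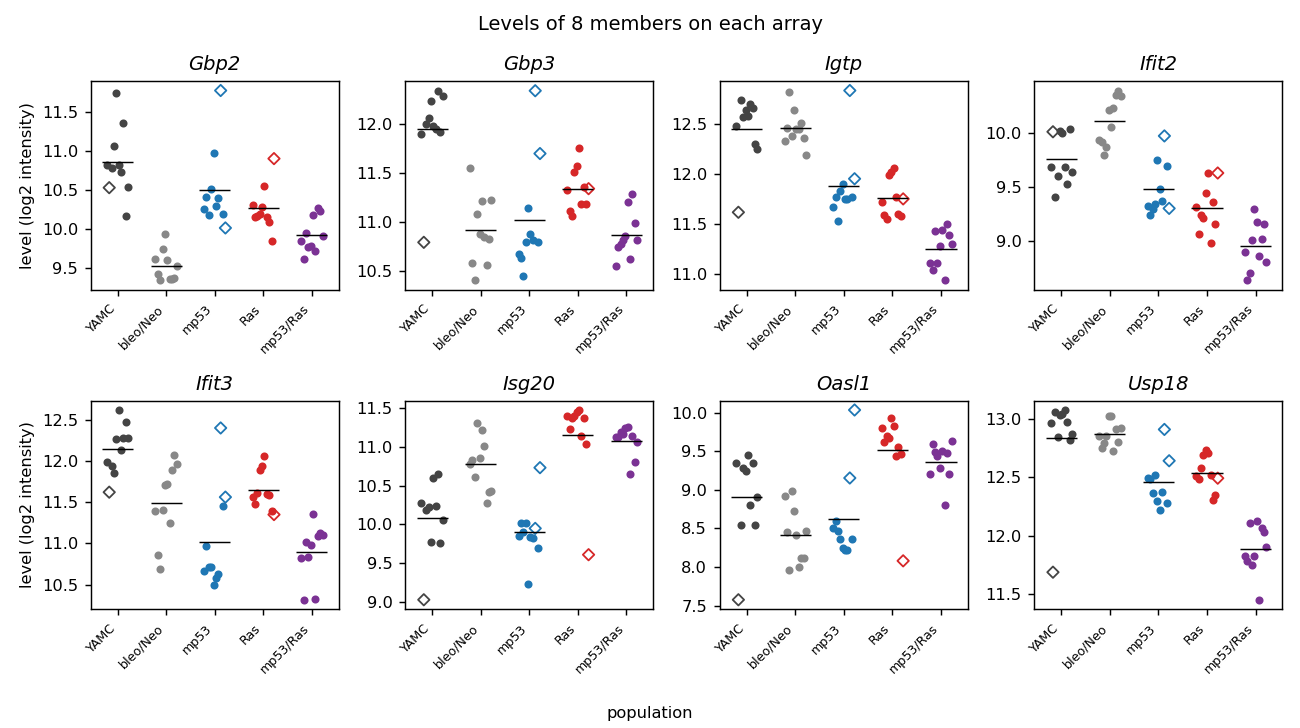
Level (log2 intensity, vertical axes with a range of their own per panel) of 8 members on each array of the 5 populations; filled points are the 46 arrays nearest their own group, open diamonds the 4 others, and bars are means of 10 arrays. Igtp and Usp18 step down from YAMC and bleo/Neo to mp53 and Ras and again to mp53/Ras, Isg20 and Oasl1 are high in Ras and mp53/Ras, and Gbp2 is lowest in bleo/Neo.

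Read across the 5 populations, 4 patterns of level stood out among the members described above, of which Gbp2, Gbp3, Igtp, Ifit2, Ifit3, Isg20 and Oasl1 met the rule of a called difference of at least 2-fold and the others were chosen after their values were seen. Igtp, Usp18 and Ifit2 had their lowest medians in mp53/Ras cells (11.29, 11.87 and 8.96) and intermediate medians in mp53 (11.77, 12.43 and 9.36) and Ras cells (11.74, 12.52 and 9.28). In Igtp and Usp18 the ranges of the neighbours mp53 and Ras overlapped, as did those of YAMC and bleo/Neo, whereas all mp53/Ras arrays lay below the arrays of mp53, Ras and bleo/Neo cells. Isg20 and Oasl1 had their highest medians in Ras cells (11.37 and 9.65), followed by mp53/Ras cells (11.14 and 9.46), with -0.07 ± 0.18 and -0.15 ± 0.20 between these neighbours (-0.24 ± 0.12 and -0.31 ± 0.12 over 46 arrays), none of them called. Isg20 was lowest in mp53 cells (9.87). For Oasl1 the medians of mp53 (8.42) and bleo/Neo cells (8.43) did not differ beyond their spread. Ifit3 and Gbp3 were highest in YAMC cells (12.20 and 11.99). Ifit3 was lowest in mp53 (10.71) and mp53/Ras cells (11.00), and Gbp3 had like medians in bleo/Neo (10.87), mp53 (10.81) and mp53/Ras cells (10.82). Gbp2 alone of the 7 had its lowest median in bleo/Neo cells (9.48), below mp53/Ras (9.89), Ras (10.19), mp53 (10.35) and YAMC cells (10.80).

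The remaining ranges of these 7 members showed where groups overlapped. Ifit3 lay at 10.68, 11.56 and 12.08 in bleo/Neo cells, between the YAMC and mp53 medians. Gbp3 lay at 10.41, 10.87 and 11.55 in bleo/Neo, 11.06, 11.33 and 11.75 in Ras and 10.56, 10.82 and 11.28 in mp53/Ras cells, ranges that overlapped each other and, but for YAMC 2, lay below those of the YAMC arrays. Gbp2 lay at 10.02, 10.35 and 11.78 in mp53, 9.85, 10.19 and 10.91 in Ras and 9.62, 9.89 and 10.28 in mp53/Ras cells, so that mp53 and Ras cells overlapped. Isg20 lay at 9.03, 10.20 and 10.65 in YAMC and 9.61, 11.37 and 11.48 in Ras cells, and Ras 10 was the lowest Ras array. Oasl1 lay at 7.57, 9.07 and 9.45 in YAMC, 8.22, 8.42 and 10.04 in mp53 and 8.80, 9.46 and 9.63 in mp53/Ras cells, with mp53 10 above every mp53/Ras array. Ifit2 lay at 9.41, 9.69 and 10.03 in YAMC, 9.25, 9.36 and 9.97 in mp53 and 8.64, 8.96 and 9.30 in mp53/Ras cells, and Igtp at 10.94, 11.29 and 11.50 in mp53/Ras cells.

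Some members were called in few comparisons or none. Over 50 arrays 7 members passed in none of the 9 pairwise comparisons: Ifit1, Irf9, Irgm1, Eif2ak2, the double-stranded RNA-activated kinase PKR that halts translation, Rtp4, Trim30a and Xaf1. Over 46 arrays, in mp53 against YAMC cells, Ifit1 fell by 0.80 ± 0.13, Eif2ak2 fell by 0.59 ± 0.21, Rtp4 fell by 0.59 ± 0.11, Trim30a fell by 0.54 ± 0.21 and Xaf1 fell by 0.53 ± 0.08. A further 5 members passed in 1 comparison over 50 arrays. The shares of all tested genes that passed in none or in 1 were not counted. The 7 and the 5 are therefore not read as a result about the members. Bst2, the tetherin that holds budding virus on the cell, stood at -0.33 ± 0.13 and Parp12 at -0.36 ± 0.13 in mp53 against bleo/Neo cells. Oas1a stood at -0.38 ± 0.13 in mp53/Ras against Ras cells, Samd9l at -0.48 ± 0.19 in mp53/Ras against YAMC cells, and Trim25, the ubiquitin ligase of RIG-I, at 0.28 ± 0.09 in Ras against bleo/Neo cells.

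Irf1 and Irgm1 were members with small differences, chosen for that after their values were seen. Irf1 had levels of 10.19, 10.57 and 10.93 in YAMC, 10.03, 10.47 and 10.67 in bleo/Neo, 10.21, 10.48 and 10.76 in mp53, 10.35, 10.62 and 10.89 in Ras and 10.50, 10.68 and 10.93 in mp53/Ras cells. All 5 ranges overlapped, and the called differences of Irf1 were 0.20 ± 0.08 in Ras and 0.27 ± 0.08 in mp53/Ras against bleo/Neo and 0.20 ± 0.08 in mp53/Ras against mp53 cells. Irgm1, a regulator of the other immunity-related GTPases, was called in none of the pairwise comparisons over 50 arrays, and over 46 arrays in Ras against bleo/Neo cells (0.29 ± 0.09).

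Within populations most members varied together from array to array. After each array's level was set against its group mean, the correlation between 2 members had a median of 0.40 over the 780 pairs of the 46 arrays, and of 0.60 over all 50. Its mean was 0.37 and 0.53, where the mean over all pairs of tested genes was 0.0060 and 0.0068. The pairs share arrays and a common normalisation, so these values describe the arrays. Oas1a, an oligoadenylate synthetase, Oasl2 and Dhx58 followed the mean of the other members most closely over 46 arrays (r = 0.87, 0.87 and 0.86), and Irf1 (0.09) and Ifit2 (0.13) least.

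Other probe sets of the same genes were used as a check on the one chosen. For 16 members there were 22 further probe sets above the low-value filter, and 20 of the 22 had the sign of the chosen one in mp53 against YAMC cells (21 over 46 arrays), 19 in Ras against bleo/Neo cells, 18 in mp53/Ras against Ras cells (20 over 46 arrays), and 12 in mp53/Ras against YAMC cells (15 over 46 arrays). The second probe set of Gbp2 gave -1.58 in bleo/Neo against YAMC and 1.20 in mp53 against bleo/Neo cells, and both further sets of Rsad2 were higher in Ras than in bleo/Neo cells (0.96 and 0.64). A probe set of Herc6 stayed between -0.07 and 0.15 in the 9 comparisons over 50 arrays, while 2 further probe sets of Herc6 gave -0.67 and -0.34 in mp53 against YAMC cells, with the sign of the chosen one. Members of the guanylate-binding protein, Ifit and oligoadenylate synthetase families have close relatives, and cross-hybridisation was not tested.

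Upstream genes of the pathway, from a list of 52 chosen by function, gave 42 on the array and 36 tested. In mp53 against YAMC cells 3 rose and 7 fell (all genes 11.1% and 11.8%), and over 46 arrays 6 rose and 12 fell (all genes 16.8% and 16.9%). In mp53/Ras against Ras cells 0 rose and 6 fell (all genes 9.12% and 12.5%). In Ras against bleo/Neo cells 7 rose and 6 fell (all genes 19.7% and 21.4%), and in mp53/Ras against mp53 cells 5 rose and 7 fell (all genes 23.3% and 23.8%). In mp53 against bleo/Neo cells 4 rose and 8 fell (all genes 16.5% and 18.9%), and in mp53/Ras against bleo/Neo cells 7 rose and 11 fell (all genes 26.7% and 27.9%). Against YAMC, in bleo/Neo cells 5 rose and 5 fell (all genes 20% and 17.4%), in Ras cells 4 rose and 5 fell (all genes 21.5% and 21.2%) and in mp53/Ras cells 6 rose and 14 fell (all genes 29.1% and 28.7%). Of the 36 genes, many of these counts lay near or below the shares of all genes. The interferon genes Ifnb1 and Ifna1 were the 2 of 5 on the array that passed the filter, with means of 6.54 and 7.34 in YAMC cells. Ifnb1 fell by 0.31 ± 0.06 between Ras and mp53/Ras cells and stood at -0.05 ± 0.06 between YAMC and mp53 cells. Its means, 6.64 in Ras and 6.34 in mp53/Ras cells, lay near the median of all values (6.44) used as the filter. The difference of Ifnb1 between Ras and mp53/Ras cells thus rests on low signal. The type I receptor subunits Ifnar1 and Ifnar2 were not called in mp53 against YAMC cells over 50 arrays (0.05 ± 0.08 and 0.17 ± 0.12).

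Among the 13 tested genes of nucleic acid sensing 6 fell and 1 rose in mp53 against YAMC cells (all genes 11.8% and 11.1%). Against the same YAMC arrays, 4 fell and 1 rose in bleo/Neo cells, which hold no oncogene (all genes 17.4% and 20%). In Ras cells 3 fell and 1 rose (all genes 21.2% and 21.5%), and in mp53/Ras cells 8 fell and 3 rose (all genes 28.7% and 29.1%). In mp53/Ras against Ras cells 4 fell and 0 rose (all genes 12.5% and 9.12%). In mp53/Ras against bleo/Neo cells 4 fell and 3 rose (all genes 27.9% and 26.7%). In mp53 against bleo/Neo cells 4 fell and 2 rose (all genes 18.9% and 16.5%), and in Ras against bleo/Neo cells 2 fell and 2 rose (all genes 21.4% and 19.7%). In mp53/Ras against mp53 cells 3 fell and 1 rose (all genes 23.8% and 23.3%). The gene that rose in mp53 against YAMC cells was Tlr4, the lipopolysaccharide receptor (0.29 ± 0.10). Ikbke, a kinase that activates interferon-inducing factors, fell by 0.75 ± 0.13 in mp53 against YAMC, fell by 1.06 ± 0.13 in mp53/Ras against Ras and fell by 1.49 ± 0.13 in mp53/Ras against bleo/Neo cells. Tlr3, the endosomal double-stranded RNA receptor, fell by 0.58 ± 0.14, Cgas, the cytosolic DNA sensor, fell by 0.44 ± 0.13 and the adaptor gene Myd88 fell by 0.31 ± 0.09 between YAMC and mp53 cells. Means in YAMC, bleo/Neo and mp53 cells were 9.30, 9.07 and 8.72 for Tlr3 and 9.83, 9.51 and 9.38 for Cgas. For Myd88 they were 10.32, 10.28 and 10.01. Irf2, a repressor of Irf1 targets, fell by 0.86 ± 0.12 between bleo/Neo and mp53/Ras cells. Socs3, an inhibitor of cytokine receptor signalling, rose by 1.05 ± 0.15 in bleo/Neo, rose by 0.71 ± 0.15 in mp53, rose by 1.18 ± 0.15 in Ras and rose by 1.31 ± 0.15 in mp53/Ras cells, each against the same YAMC arrays.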

How the data were processed

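Each of the 50 Affymetrix mouse arrays gave a column of linear intensities, which the authors deposited in the series' value table; per the submitters' processing notes they used RMA, whose version is not given in the sources used here. How the log2 values of RMA were turned back to a linear scale is not stated, and log2 of the deposited intensity was used here. Of 45101 probe sets 64 were blank and left out, and 34945 had 1 symbol in the platform annotation, of which 34741 matched a RefSeq gene by its identifier. Array medians ran from 86.4 to 86.7, and the number of arrays, 10 per group, limits the precision.

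The fit used limma 3.58.1 in R 4.3.3, with 1 coefficient per group over all 50 arrays, a trend of the variance with intensity and p-values adjusted by Benjamini-Hochberg within each comparison (12883 genes), and was tested on simulated data. Members whose full range is given were called with a difference of at least 2-fold in a pairwise comparison, and other genes named were chosen by role or after their values were seen. The members and lists were chosen with earlier results of these data known. Alternatives were the arrays fitted, the replicate number as a block, the filter, the probe sets of a gene, centring, an offset of 16, the trend, array weights and YAMC as the baseline. Replicate numbers were not used to pair arrays. Promoter windows were matched by symbol. No array was identical to another.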

Additional observations from a re-analysis of the deposited data

Results flagged for a closer look

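Single arrays stood far from the other 9 of their population in 10 of 40 groups examined (the 7 members described in full and the median deviation of the 40 members, in 5 populations each), judged by Dixon's ratio of the gap to the nearest array over the group's range and its critical value for 10 arrays. Chance alone does this in about 1 in 20 groups. Of the 10, 9 fell on arrays that lay nearer another population over the genes outside the list. The array labelled YAMC 2 had 11.62 for Igtp where the other 9 lay between 12.25 and 12.74, 7.57 for Oasl1 (others 8.54 to 9.45), 10.79 for Gbp3 (others 11.90 to 12.34) and -0.88 for the median deviation of the 40 members (others -0.03 to 0.50). The array labelled mp53 8 had 12.83 for Igtp (others 11.54 to 11.95), and the array labelled mp53 10 had 10.73 for Isg20 (others 9.23 to 10.02) and 10.04 for Oasl1 (others 8.22 to 9.15). The array labelled Ras 10 had 9.61 for Isg20 (others 11.04 to 11.48) and 8.08 for Oasl1 (others 9.43 to 9.94). The array labelled mp53/Ras 7, which lay nearest its own population, had 8.80 for Oasl1 (others 9.20 to 9.63). Why these arrays differ was not tested.

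The difference with Ras was unequal with and without mutant p53 in 3 members, by limma's test of the non-additive term over 50 arrays: Isg20 (0.80), Gbp2 (-1.31) and Iigp1 (-0.74). None of the 3 was called with YAMC in place of bleo/Neo as the baseline, where the terms were 0.10, 0.020 and 0.071.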

How the results depend on the processing

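The counts of members called with all 50 arrays were, against YAMC cells, 16 in mp53, 19 in mp53/Ras, 10 in Ras and 15 in bleo/Neo cells, 21 in Ras, 13 in mp53 and 13 in mp53/Ras cells against bleo/Neo, 14 in mp53/Ras against mp53, 13 in mp53/Ras against Ras cells and 3 for the non-additive term. Fitting only the groups compared gave 7 for mp53 against YAMC, 23 for mp53/Ras against bleo/Neo and 23 for mp53/Ras against Ras. Without the 4 arrays nearer another group, the counts against YAMC were 23 (bleo/Neo), 37 (mp53), 18 (Ras) and 29 (mp53/Ras). They were 27 for mp53 and 25 for mp53/Ras against bleo/Neo, 24 for mp53/Ras against each single oncogene and 6 for the non-additive term. Array weights gave 38 for mp53 and 30 for mp53/Ras against YAMC, 24 for mp53 and 21 for mp53/Ras against bleo/Neo, 24 for mp53/Ras against mp53, 28 for mp53/Ras against Ras and 8 for the non-additive term. With YAMC as the baseline 1 member was called for that term, Ifi35, and none of the 3 called with bleo/Neo, and that of Gbp2 turned to 0.020. Leaving out each of the 4 arrays alone, an alternative chosen after the data were seen, gave 16 to 28 for mp53 against YAMC and 2 to 5 for the non-additive term. Other counts stayed within 1.5 times the value with all arrays under these and the remaining alternatives, except under the replicate block, given below. The cause of these shifts was not tested, and each setting differs in the arrays used or their weight.

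No label says that the replicate numbers pair arrays. Same-numbered arrays of different groups had a median correlation of 0.19, beside -0.02 for other numbers. Of 100 such pairs 67 were over 0.1, the lowest being -0.52. These values include the arrays nearer another group and do not decide whether the numbers are pairs. The numbers were not taken as pairs because no label states it, and the p-values of the main fit leave out any such sharing. With the replicate block 5 members were called for the non-additive term in place of 3. Of 50 arrays 31 correlated best with their own number, a hint of pairing from the data that the design does not state. How many would do so by chance was not computed. Centring moved the median of all genes by at most 0.036, and signal near the table's median limits Mx1.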
